A study of Homo sapiens with 2 samples.

Results

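N6-methyladenosine (m6A) is a methyl mark on adenosines of messenger RNA. A methyltransferase complex, the writer, places it while transcripts are being made in the nucleus, proteins with a YTH domain read it, and the demethylases FTO and ALKBH5 can remove it. The 10 genes described here are 6 writer genes (METTL3, METTL14, WTAP, VIRMA, RBM15 and ZC3H13), 2 reader genes (YTHDC1 and YTHDF2) and 2 eraser genes (FTO and ALKBH5). They form a set named by function, not by their values, but were chosen with earlier results of these data known. They were found in the table by matching Ensembl identifiers to current symbols. All 10 had a value, out of 12353 genes in all.

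Nascent transcription was measured by GRO-seq in BJ cells, a human skin fibroblast line, without treatment and in medium with 10% serum. In this assay polymerases already on the DNA are allowed to run on in isolated nuclei, here for 5 min at 30 °C, and the labelled RNA is sequenced. The 2 libraries, called a and b, belong to a single group and are biological replicates per the submitters' protocol. There is thus no second condition, and no p-value is given. An exact sign-flip test of 2 libraries could not go below 0.5.

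Values are FPKM, a read count divided by gene length and library size, as the authors deposited it. FPKM in this assay describes how densely a gene was being transcribed, not how much mRNA or protein it had. Neither that length nor the depth of the libraries is known here, so levels of different genes are comparable only as far as the length fits each gene. The lowest values were 0.29 in library a and 0.27 in library b, so genes without signal are not among the 12353. Percentiles, the median gene and shares of all genes refer to these 12353 genes, not to every annotated gene. The median gene had a mean FPKM of 11.7 and the upper quartile was 22.2. All 8 fibroblast markers checked had values, from 21.4 ± 1.81 (SD, n = 2) for FAP to 649 ± 48.1 for the collagen gene COL1A1. No value was found for any of 4 leukocyte or 4 endothelial markers, and 1 of 4 epithelial markers (CDH1, 1.49 ± 0.0141) and 2 of 4 melanocyte markers (PMEL, 22.4 ± 2.23, and MLANA, 4.53) had one. Genes were looked up by current symbol, and 151 of the 12353 identifiers had none. A gene with no value found here may therefore be absent or may stand under such an identifier.

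The set spanned a 12.8-fold range of mean FPKM, with METTL3 at the top and FTO at the bottom. The sequences just upstream of the annotated start of these extremes are shown because they flank the starts of the highest and the lowest member. They are the 250 bases before the RefSeq start (GRCh38.p14), with METTL3 on the minus strand at chr14:21511341-21511590 and FTO on the plus strand at chr16:53703906-53704155. Capitals mark every match, on either strand, to the searched motifs, which did not overlap each other in these windows.
METTL3: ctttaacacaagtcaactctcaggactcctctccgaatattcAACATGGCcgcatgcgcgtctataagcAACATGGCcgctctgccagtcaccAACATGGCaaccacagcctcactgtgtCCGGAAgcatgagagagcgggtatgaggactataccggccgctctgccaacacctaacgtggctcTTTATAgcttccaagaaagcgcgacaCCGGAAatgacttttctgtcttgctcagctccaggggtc
FTO: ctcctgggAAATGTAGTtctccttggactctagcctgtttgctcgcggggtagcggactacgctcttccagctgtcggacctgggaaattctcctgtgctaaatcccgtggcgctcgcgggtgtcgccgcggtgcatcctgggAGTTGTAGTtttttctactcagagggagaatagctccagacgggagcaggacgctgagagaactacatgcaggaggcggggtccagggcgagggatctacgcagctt

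The motifs were searched on both strands. The box known for SP1 binding was searched as GGGCGG, the NF-Y box as CCAAT, the core of ETS family sites as CCGGAA and the TATA box as TATAAA. After the sequences were seen, the core of YY1 sites was added as AANATGGC and that of ZNF143 sites as ACTACANNT. The METTL3 window held 3 copies of the YY1 letters, 2 of the ETS letters and 1 of the TATA letters. The TATA match was on the opposite strand, read as TTTATA in the sequence shown. At least 1 copy of the YY1 letters occurred in 3.86% of 35116 RefSeq promoter windows of the same length, and 3 or more copies in 9 of them (0.0256%). Among windows of genes with a value the shares were 4.22% and 0.0344%. The FTO window held 2 copies of the ZNF143 letters and no match to the others, and 2 or more copies occurred in 101 of all windows (0.288%) and in 77 windows of genes with a value (0.530%). The YY1 and ZNF143 letters were picked from these windows, and the copy numbers counted are those the windows hold. Their shares are therefore a description and cannot set the windows apart. All these matches describe letters in the reference and were not tied to any measurement of binding.

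The table of promoters matched 9 of the 10 genes, with 11 start sites because WTAP and YTHDF2 each had 2 of them. VIRMA had no entry. The SP1 letters occurred in 7 of the 11 windows, against 42.6% of all windows and 62.7% of windows of genes with a value. The NF-Y letters occurred in 5 of 11, 4 copies of them upstream of RBM15, against 32.0% of all windows and 33.0% of windows of genes with a value. ETS letters were upstream of METTL3, METTL14 and ZC3H13 (3 of 11, against 14.5% of all windows and 22.7% of windows of genes with a value). TATA letters were in 1 of 11, against 10.7% of all windows and 6.06% of windows of genes with a value. The YY1 letters were in 2 of 11, the METTL3 window and 1 of the WTAP windows. The ZNF143 letters were in 1 of 11, the FTO window, against 3.22% of all windows and 4.19% of windows of genes with a value. The number of CpG dinucleotides ran from 11 in the METTL14 window to 34 in 1 of the YTHDF2 windows, with a median of 17, against 11 for all windows and 20 for windows of genes with a value.

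The catalytic pair of the writer is formed by METTL3, which binds the methyl donor and carries out the reaction, and METTL14, a related protein that helps to hold the RNA. METTL3 was at 50.47 and 53.61 in libraries a and b, a mean of 52.0 ± 2.22, which is 4.45 times the median gene and at percentile 93.5 of all genes. METTL14 was at 30.14 and 33.68, a mean of 31.9 ± 2.50 and percentile 85.2. The values of these partners did not overlap, and METTL3 was 1.67 times METTL14 in library a and 1.59 times in library b.

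WTAP, which anchors the catalytic pair in nuclear speckles, was at 22.44 and 19.43 (20.9 ± 2.13, percentile 73.1). VIRMA, the large scaffold that guides methylation toward the ends of messages, was at 12.09 and 9.74 (10.9 ± 1.66, percentile 46.8). Library a thus put VIRMA just above the median gene and library b below it. ZC3H13, the zinc finger protein that keeps the complex in the nucleus, was the lowest writer gene, at 7.94 and 7.33 (7.64 ± 0.431, percentile 32.0). RBM15, an RNA-binding adaptor that brings the complex to its targets, was at 38.24 and 43.68 (40.96 ± 3.85, percentile 90.2), the second highest mean among the 10.

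The reader YTHDC1 works in the nucleus, where it binds methylated RNA and affects splicing and export. It was at 38.56 and 30.50 (34.5 ± 5.70, percentile 87.0), the widest relative gap between the libraries among the 10 genes. YTHDF2, the cytoplasmic reader that leads methylated messages to decay, was at 16.69 and 18.06 (17.4 ± 0.969, percentile 66.2). YTHDC1 was 2.31 times YTHDF2 in library a and 1.69 times in library b.

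The erasers stood apart from each other. ALKBH5, a nuclear demethylase, was at 14.95 and 17.09 (16.02 ± 1.51, percentile 63.1). FTO, which also removes the related mark m6Am next to the cap, was at 4.43 and 3.73 (4.08 ± 0.495, percentile 13.8), 0.349 times the median gene. ALKBH5 was 3.37 times FTO in library a and 4.58 times in library b, and both values of FTO lay below all values of the other 9 genes.

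**Figure D1:**
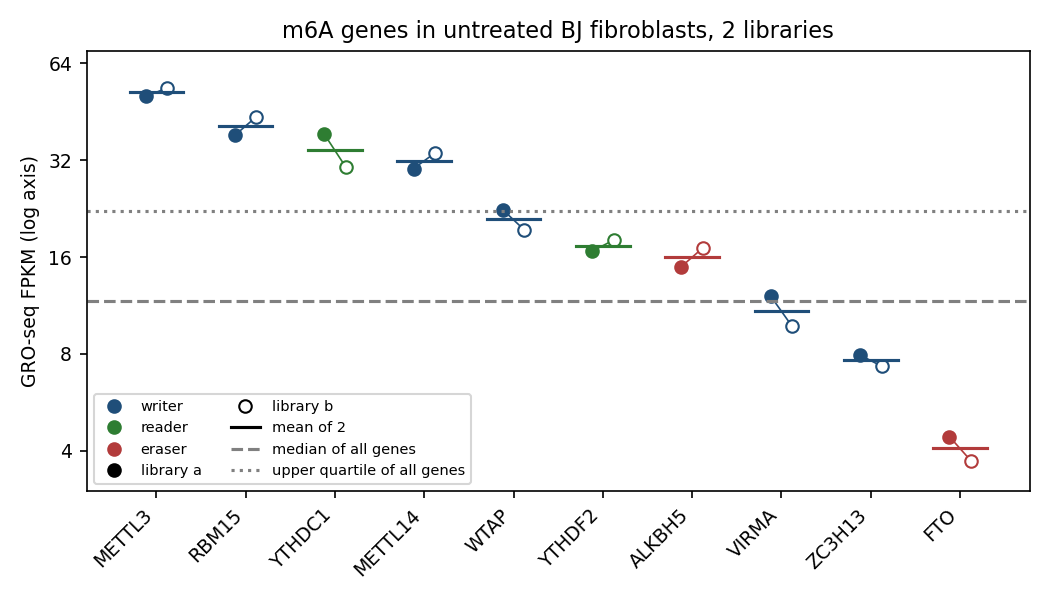
FPKM (log axis) of the 10 m6A genes, ordered by their mean, with library a as filled and library b as open points, a bar at the mean, and lines at the median (11.7) and upper quartile (22.2) of all 12353 genes. METTL3, RBM15, YTHDC1 and METTL14 lie above the upper quartile in both libraries, and ZC3H13 and FTO lie below the median in both.

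By mean FPKM, 7 of the 10 genes were above the median gene, where 50.0% of all genes are by construction, and 4 were above the upper quartile, where 25.0% of all genes are. With so few genes, neither count sets the group apart from other genes. The median of the 10 was 19.2 (19.6 and 18.7 in the single libraries). The genes above the upper quartile were METTL3, RBM15, YTHDC1 and METTL14, and those below the median were VIRMA, ZC3H13 and FTO.

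How firmly the order holds was judged from the spread between libraries. An SD of 2 values is a poor estimate, so limma was fitted to all genes on log2(FPKM + 0.1), which pools the spread over genes of like level, and a difference of more than 2 standard errors with the same sign in both libraries was taken as set apart. This is a yardstick, not a test, and it covers only the spread between the libraries. As background, FTO and ZC3H13, at the low end, are long genes and METTL3 and RBM15, at the high end, are short ones, so level and gene length run together at the ends of the order and in the writer ratios below. The part of length in these values was not tested. Of the 45 pairs among the 10 genes, 42 were set apart and 3 were not. Of the 9 steps between neighbours in the order, 6 were set apart. The share of all gene pairs that this yardstick sets apart was not computed, so these counts do not mark the members out.

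The 3 pairs that could not be ordered were RBM15 with YTHDC1, YTHDC1 with METTL14, and YTHDF2 with ALKBH5. RBM15 over YTHDC1 had a log2 ratio of -0.01 in library a and 0.52 in library b. YTHDC1 over METTL14 changed sign as well, from 0.35 to -0.14, so the place of YTHDC1 in the order depends on the library. YTHDF2 over ALKBH5 was 0.16 and 0.08, a mean of 0.12 against 2 standard errors of 0.24. The narrowest step that was set apart was WTAP over YTHDF2, with a mean log2 ratio of 0.26 against 0.23. Its ratio was 0.42 in library a but only 0.10 in library b, so this step rests mainly on library a.

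In the assembled complex METTL3 and METTL14 occur in equal numbers, so the genes of the writer were also compared within each library, where the scale of the library drops out. Together the 6 writer genes had a summed FPKM of 161.3 in library a and 167.5 in library b. METTL3 held 31.6% ± 0.513 of that sum, RBM15 24.9% ± 1.68, METTL14 19.4% ± 1.01, WTAP 12.8% ± 1.63, VIRMA 6.66% ± 1.19 and ZC3H13 4.65% ± 0.385. The catalytic pair accounted for 51.0% ± 1.52. The mean FPKM of the writer genes differed by up to 6.82-fold, between METTL3 and ZC3H13.

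All 15 pairs of writer genes were set apart by the yardstick above. Without the share over all gene pairs, that count does not mark the writer out from other genes. METTL3 exceeded METTL14 by a log2 ratio of 0.71 ± 0.0515, against 2 standard errors of 0.19. It exceeded RBM15 by 0.35 ± 0.0739, WTAP by 1.31 ± 0.208, VIRMA by 2.25 ± 0.280 and ZC3H13 by 2.75 ± 0.142. The ratio to METTL14 was the steadiest of these between the libraries, and the ratio to VIRMA the least steady, at 4.17-fold in library a and 5.50-fold in library b.

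WTAP and VIRMA kept a similar ratio in both libraries. WTAP was 1.86 times VIRMA in library a and 1.99 times in library b, a log2 ratio of 0.94 ± 0.0722. RBM15 over METTL14 was likewise steady, at 1.27-fold and 1.30-fold. METTL14 over WTAP moved more, from 1.34-fold to 1.73-fold. RBM15 over VIRMA moved the most of the 15 writer pairs, from 3.16-fold to 4.48-fold. These ratios rest on 2 libraries each.

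**Figure D2:**
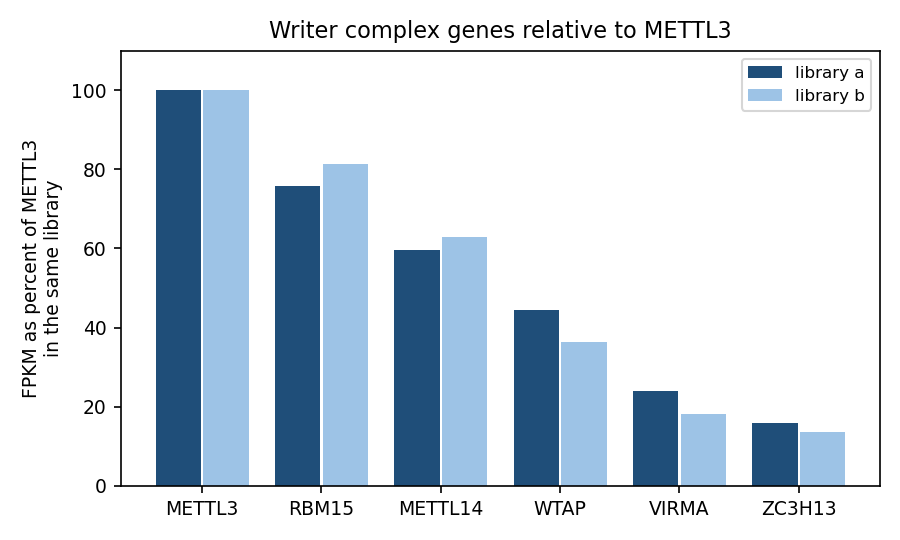
FPKM of each writer gene as a percentage of METTL3 in the same library, with library a dark and library b light. METTL14 stands at 59.7% and 62.8% of METTL3 and ZC3H13 at 15.7% and 13.7%, so the order of the 6 genes is the same in both libraries.

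Unequal levels were also seen in other complexes of the same libraries. They are given only to show the size of such ratios, as a description. From the lowest to the highest subunit by mean FPKM, the writer spanned 6.82-fold over 6 genes. PRC2, which methylates histone H3, spanned 3.58-fold over 5 genes, from SUZ12 (8.46 ± 0.912) to EED (30.2 ± 1.22). The CCR4-NOT deadenylase, which YTHDF2 recruits, spanned 5.57-fold over 11 genes, from CNOT6L (4.66 ± 0.184) to TNKS1BP1 (25.97 ± 0.276). Factors of cleavage and polyadenylation spanned 6.15-fold over 15 genes, from CSTF2 (9.20 ± 0.410) to PCF11 (56.5 ± 0.509). The number of genes differs between the complexes, which also affects such a range, as does the choice of the genes listed for each.

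**Figure D3:**
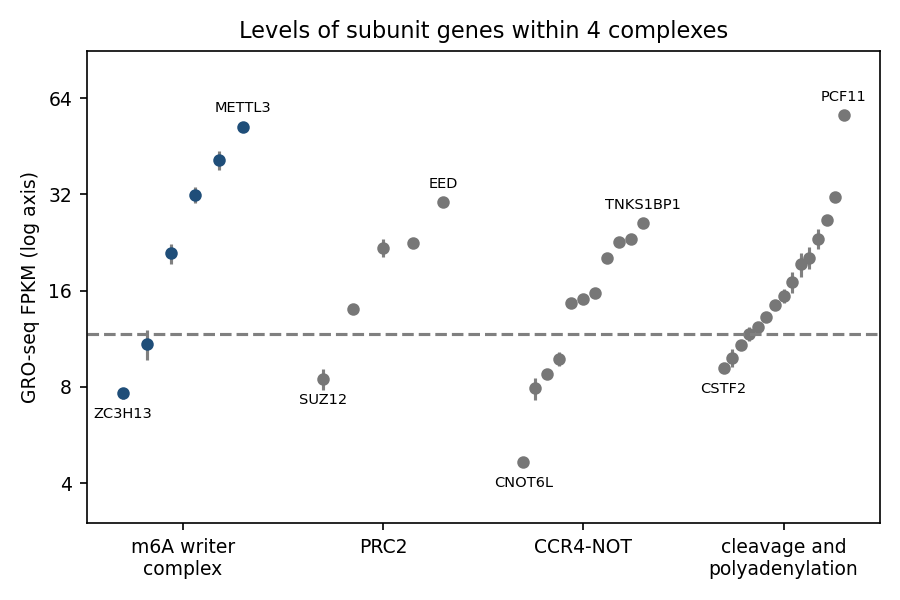
FPKM (log axis) of the subunit genes of 4 complexes, each point the mean of the 2 libraries and each line the range between them, with the median of all genes dashed. The 6 writer genes run from ZC3H13 (7.64) to METTL3 (52.0), and the lowest and highest gene of each complex are named.

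Other RNA methyltransferases made of a catalytic subunit and a partner are given beside METTL3 and METTL14 as a description, and differences between their ratios were not tested. METTL1 and WDR4, which methylate guanosine in tRNA, were at 21.7 ± 1.36 and 24.5 ± 2.81, with a log2 ratio of -0.17 against 2 standard errors of 0.22, so they were not set apart. The catalytic gene TRMT61A was 1.40 times its partner TRMT6 in library a and 1.43 times in library b. TRMT112, which stabilises METTL5 and also serves other methyltransferases, was at 68.6 ± 2.53, 4.25 times METTL5 in library a and 5.51 times in library b.

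The libraries were then compared gene by gene, as log2 of (FPKM + 0.1) in library b over library a less the median of all genes. None of the 10 genes differed by more than 1.5-fold, against 2.16% of all genes. At 1.2-fold, a limit added after the data were seen, 2 of 10 differed, against 21.3% of all genes, which is close to the background. These were YTHDC1 (-0.32) and VIRMA (-0.29), both lower in library b. METTL3, METTL14, RBM15, YTHDF2 and ALKBH5 were higher in library b by 0.10 to 0.21, and ZC3H13, WTAP and FTO lower, at -0.10, -0.19 and -0.23.

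**Figure D4:**
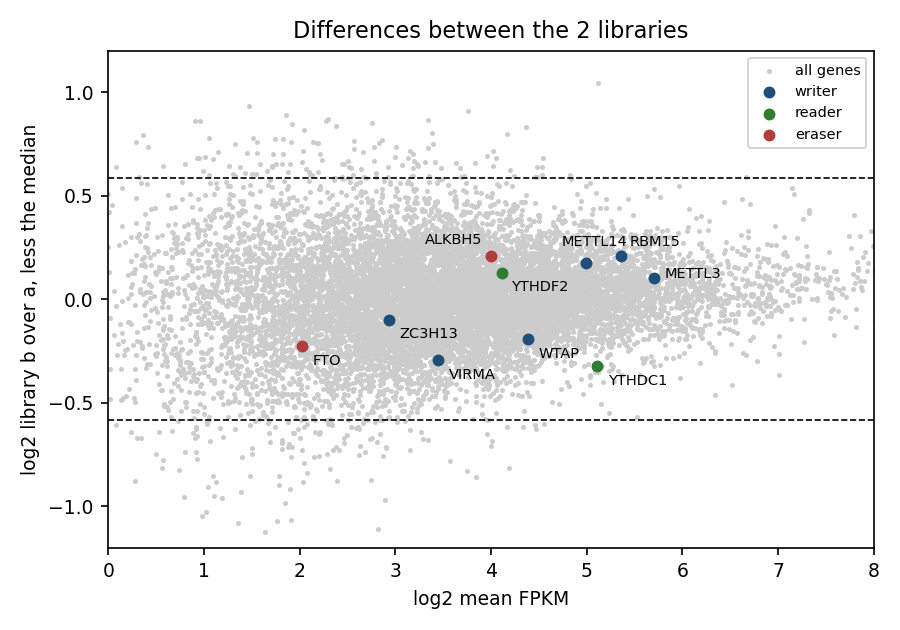
Log2 ratio of library b over library a, less the median of all genes, against log2 mean FPKM, with all genes in grey, the 10 m6A genes coloured by role, and dashed lines at 1.5-fold. Genes outside the axes are not drawn. All 10 lie between the dashed lines, with YTHDC1 lowest (-0.32) and ALKBH5 and RBM15 highest (0.21).

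A list of 38 further genes was taken, and 35 of them had values. It joins genes of the wider m6A pathway with 7 other ALKBH genes, which are relatives of the erasers. No value was found under the symbols RBM15B, YTHDF3 and SRSF10, which does not show that these genes lacked signal. Of the 35, 25 were above the median gene, where 50.0% of all genes are, and 14 above the upper quartile, where 25.0% are. The ALKBH genes were 5 of the 25 and 3 of the 14. The median FPKM of the 35 was 14.8. Only RIDA (5.95 and 9.23) differed by more than 1.5-fold between the libraries. That is 1 of 35, close to the 2.16% of all genes.

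Among the other genes of the writing step, CBLL1, the ubiquitin ligase HAKAI that associates with the writer, was at 17.3 and 17.0, so METTL3 was 2.92 and 3.15 times as high. METTL16, which methylates U6 small nuclear RNA and the message of MAT2A, was the lowest of the other methyltransferases at 5.65 and 7.34, and METTL3 was 8.93 and 7.30 times as high. METTL4 was at 7.86 ± 0.361, ZCCHC4, which acts on ribosomal RNA, at 12.6 ± 0.856, METTL5 at 14.3 ± 2.09 and PCIF1, the enzyme that writes m6Am at the cap, at 38.9 ± 0.552.

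The other YTH genes with a value were below both YTHDC1 and YTHDF2. YTHDF1 was at 12.8 ± 0.559 and YTHDC2, a helicase best known for its role in meiosis, at 7.71 ± 0.290. Of 11 further proteins proposed to bind m6A or the structures it opens, 7 were above the median gene, against 50.0% of all genes. The 11 ran from FMR1 (3.84 ± 0.240) to HNRNPA2B1 (130 ± 4.15). RBMX (57.4 ± 1.75), PRRC2A (48.2 ± 3.01) and HNRNPC (45.9 ± 2.94) were also high. The IGF2BP genes, whose proteins stabilise bound messages, lay near the median gene, with IGF2BP1 at 14.8 ± 0.290, IGF2BP2 at 11.7 ± 0.580 and IGF2BP3 at 9.56 ± 0.445.

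Of the 5 partners of the readers with a value, 4 were above the median gene, against 50.0% of all genes. SRSF3, a splicing and export factor that binds YTHDC1, was at 207 ± 10.5 and the export receptor gene NXF1 at 49.2 ± 1.03. CNOT1, through which YTHDF2 reaches the deadenylase, was at 23.2 ± 0.771, UPF1 at 12.8 ± 0.566 and RIDA, an adaptor of YTHDF2, at 7.59 ± 2.32. For the supply of the methyl donor, the synthetase gene MAT2A was at 146 ± 4.72, 11.9 times its regulatory partner MAT2B (12.3 ± 0.325), and AHCY, which clears the by-product, was at 16.6 ± 1.09.

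FTO and ALKBH5 belong to the AlkB family of dioxygenases, and FTO was below all 7 other ALKBH genes measured. These ran from ALKBH8 (6.48 and 7.52) to ALKBH6 (43.1 ± 0.601), with 5 of 7 above the median gene, against 50.0% of all genes. ALKBH5 (16.02) fell between ALKBH1 (13.6 ± 0.184) and ALKBH7 (25.5 ± 3.82).

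The genes next to the members were examined because reads from neighbours can enter a count when strand is not used, and whether strand was used is not known here. In RefSeq, the span of METTL3 (chromosome 14) overlaps that of TOX4, which was at 27.57 and 24.01. METTL3 was 1.83 and 2.23 times TOX4. The span of WTAP (chromosome 6) overlaps that of SOD2, for which no value was found under its symbol, so its level is unknown. The values of METTL3 and WTAP are uncertain to that extent, and the share of reads from their neighbours was not tested.

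The other 8 members overlapped no protein-coding gene. RPGRIP1L, the neighbour of FTO on chromosome 16, was also low, at 2.85 and 2.98, whereas IRX3 on its other side was at 18.5 and 15.7. Next to METTL14 on chromosome 4 stood PRSS12 (118 ± 14.5) and SEC24D (18.7 ± 1.62). No value was found under the symbols of the protein-coding neighbours of YTHDC1 and ZC3H13, although YTHDC1 itself was at percentile 87.0.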

How the data were processed

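GRO-seq was made from 2 libraries of untreated BJ cells. The FPKM values were computed and deposited by the authors, with 1 column per library. The submitters' processing notes list Bowtie2, HTSeq and the build hg19 with no versions. Gene length, read totals, strand use and the handling of multimapping reads were not given in the sources used here, and depth is unknown. The columns carry letters and the labels numbers, so each column was tied only to the group.

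Symbols were matched for 12202 of 12353 identifiers. Levels are means ± SD. Log2 values use a pseudocount of 0.1, and no filter on low values was added to the deposited genes. Spread was fitted over all genes with limma 3.58.1 (R 4.3.3, intercept only, eBayes with trend). The procedure was also run on simulated data with spreads set by hand. That run does not show how well the yardstick suits these libraries. Python 3.11.15 was used otherwise. Neighbours and promoters come from RefSeq on GRCh38.p14. Its gene spans served only to find overlaps and neighbours, the only coordinates printed are those of promoter windows, and no gene lengths were used, because the build differs from hg19. Alternatives were other pseudocounts, quantile normalization, each library alone, minimum mean FPKM of 1 and 5, no centring and no trend. All 10 members are named. Of the other lists any gene may be named, with at least the highest and lowest. Members and lists were chosen with earlier results of these data known.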

Additional observations from a re-analysis of the deposited data

How the results depend on the processing

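Of 83 values recomputed with both libraries kept, 80 kept their direction and moved by less than 1 SD between libraries, or by less than 1.5 times for counts, and none reversed. A pseudocount of 1 moved the other 3, namely the range of CCR4-NOT (4.77-fold, from 5.48-fold on the log2(FPKM + 0.1) scale), the range of cleavage and polyadenylation factors (5.64-fold, from 6.09-fold) and the log2 ratio of WTAP over ZC3H13 (1.34, from 1.44). A larger pseudocount compresses ratios to low genes by construction. A single library always lies within 1 SD of a mean of 2 libraries, so leaving out a library is no check of stability here, and its values are those given per library. Library a alone put 8 members above the median gene, with VIRMA added, and library b alone 7. The 42 member pairs set apart were as many at pseudocounts of 0 and 1, after quantile normalization and without the trend. Counts of pairs set apart were not recomputed from 1 library, which leaves no spread to fit. No paired analysis was possible because the series has a single group. Depth is unknown, so counting error could not be separated from the spread between libraries. Gene length was not examined. That it runs with level at both ends of the order is background and was not measured here.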
